A study of Mus musculus with 16 samples.

Results

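The 395 regions described here are the sites at which the H3K27me3 library of wild-type mice exceeded that of mice lacking NCoR1, out of 23511 regions in the 10 deposited lists of differences used. They are every region of the authors' list that set the WT H3K27me3 library over the KO H3K27me3 library. The list deposited under the KO library repeats the same 395 regions, so only the WT-higher direction could be described. Jejunal epithelial cells of C57BL/6 neonates at postnatal day 12 were profiled by ChIP-seq for 6 histone marks. The labels name the genotypes WT, or F/FUN, and KO, or DIECUN, the latter with NCoR1 deleted in the intestine. They do not spell these names out, and they give neither the promoter behind the deletion, nor the number of animals behind a library, nor their sex. Each mark and genotype had 1 library, so no difference could be set against replicate error and no test was made. The WT H3K27me3 library held 33122792 tags, of which 29529074 (89.2%) were left after duplicates were removed. The KO library held 27946003, of which 25162338 (90.0%) were left.

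H3K27me3, trimethylation of lysine 27 of histone H3, is laid down by Polycomb repressive complex 2 and is known for covering silent developmental regulators, such as Hox genes, and the inactive X chromosome. Acetylation uses the same lysine, so H3K27ac and H3K27me3 cannot sit on the same histone tail. NCoR1 is a corepressor that holds the deacetylase HDAC3 and is recruited by nuclear receptors without activating ligand. Scd2 encodes a stearoyl-CoA desaturase, an enzyme that makes monounsaturated from saturated fatty acids.

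The sequences below show what the listed regions look like, all from the mm9 assembly, plus strand unless stated, with each CG dinucleotide in capitals. The first set holds the regions with the highest fold of the list, between genes on chromosome 10, with 3 CG, and on chromosome 7, with none.
chr10:97253380-97253542: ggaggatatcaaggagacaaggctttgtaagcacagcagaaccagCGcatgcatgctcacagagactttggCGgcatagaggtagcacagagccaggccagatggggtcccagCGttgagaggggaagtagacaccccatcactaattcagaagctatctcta
chr7:77599571-77599734: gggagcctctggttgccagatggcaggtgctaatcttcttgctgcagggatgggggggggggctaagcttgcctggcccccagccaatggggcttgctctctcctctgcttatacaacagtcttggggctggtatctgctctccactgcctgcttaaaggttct
The second set holds introns of Scd2 that were listed both for WT-higher H3K27me3 and for KO-higher H3K27ac, with 3 and 1 CG.
chr19:44371373-44371537: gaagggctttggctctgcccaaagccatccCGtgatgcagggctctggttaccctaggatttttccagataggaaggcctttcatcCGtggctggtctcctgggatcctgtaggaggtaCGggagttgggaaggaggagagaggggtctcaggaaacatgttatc
chr19:44373339-44373530: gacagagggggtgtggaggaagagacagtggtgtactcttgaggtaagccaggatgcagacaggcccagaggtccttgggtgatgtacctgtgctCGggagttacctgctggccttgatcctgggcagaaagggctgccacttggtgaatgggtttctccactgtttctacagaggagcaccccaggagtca
The third set holds regions beside homeobox genes, upstream of starts of Hoxb3, with 7 CG, and Evx1, with 3 CG.
chr11:96187926-96188082: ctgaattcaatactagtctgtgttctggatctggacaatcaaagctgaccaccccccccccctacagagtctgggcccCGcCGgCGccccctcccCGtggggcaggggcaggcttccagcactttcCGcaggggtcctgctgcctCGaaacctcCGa
chr6:52262127-52262312: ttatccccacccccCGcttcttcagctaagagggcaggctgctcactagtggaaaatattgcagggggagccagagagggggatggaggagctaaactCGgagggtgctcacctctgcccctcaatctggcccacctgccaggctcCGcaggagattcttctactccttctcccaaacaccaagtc
The fourth set is a region of a duplicated stretch of chromosome 17 and its copy on the minus strand, shown to make plain how little tells the copies apart; here capitals mark the differences. Counted from 1 at the 5′ end of the region, they were A42G and C101T over 168 bases, an identity of 98.81%.
chr17:6481496-6481663: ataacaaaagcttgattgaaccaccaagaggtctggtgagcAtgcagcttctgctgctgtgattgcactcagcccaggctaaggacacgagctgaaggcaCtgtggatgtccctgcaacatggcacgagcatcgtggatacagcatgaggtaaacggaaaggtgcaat
chr17:6264798-6264965: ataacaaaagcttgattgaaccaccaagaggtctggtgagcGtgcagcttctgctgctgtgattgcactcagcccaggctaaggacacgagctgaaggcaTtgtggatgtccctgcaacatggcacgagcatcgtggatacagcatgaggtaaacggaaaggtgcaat

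The regions were short and thinly covered. Together they covered 74422 bp, with a median length of 170 bp (151 to 770), and 13 of them reached 300 bp. The shortest length equals the fragment length of 151 bp used for the calls. Median lengths in the other lists were 152 to 193 bp, so shortness was not particular to H3K27me3. The tags at each summit could be recovered from the deposited pileups: the WT library held a median of 24 tags (13 to 108), against a background in the KO library of 4 tags (2.04 to 40). A count of 24 has an exact 95% Poisson interval of 15.4 to 35.7, for counting error only. The authors' fold, the scaled WT pileup over the KO background with 1 tag added to both, had a median of 4.12 (1.87 to 7.90). The KO background was the average of the whole genome, 2.04 tags, at 47 regions, so the KO library had no local excess of tags there. The weakest region by -log10 q, at 1.39, had 28 WT tags over a background of 9. Of all regions, 83 reached a -log10 q of 5 (21.0%, 95% Wilson interval 17.3 to 25.3).

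**Figure D1:**
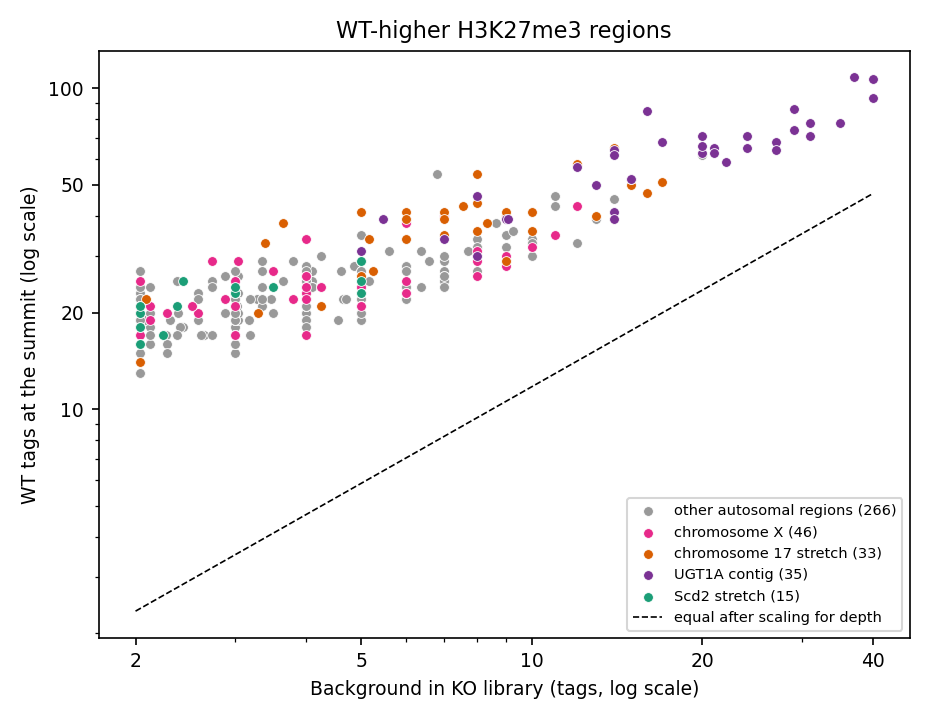
Tags at the summit in the WT library (vertical axis, log scale) against the background in the KO library (horizontal axis, log scale) for the 395 regions, 1 point each, coloured by where they lie; the dashed line marks equal levels after scaling for depth. Every point lies above the line, the contig points reach 108 WT tags, and the Scd2 points sit at backgrounds of 2.04 to 5 tags.

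The regions fell into 2 kinds, a few dense groups and a scatter of single sites. Of the 360 regions on the chromosomes analysed, 298 had no other within 100 kb and 7 pairs lay closer than that. Only 2 runs of 3 or more neighbours remained, 33 regions on chromosome 17 and 15 around Scd2 on chromosome 19. A further 35 (8.86%) lay on a sequence named UGT1A that the authors' files list beside the mm9 chromosomes and that is not part of mm9. UGT1A genes encode enzymes that attach glucuronic acid to bilirubin, bile acids and drugs.

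The contig and the chromosome 17 stretch held the most tags. On the contig, the WT library had a median of 64.0 tags (30 to 108), the KO background was 20 (5 to 40), and the fold was the lowest of all groups, with a median of 2.60 (1.87 to 5.30). On chromosome 17 the WT median was 39.0 tags (14 to 65), the KO background 7.58 and the median fold 3.86 (2.28 to 7.20). These 2 groups gave 14 and 17 of the 83 regions that reached a -log10 q of 5. Without them 327 regions remained, 52 of which (15.9%, 12.3 to 20.3) reached that value.

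The chromosome 17 stretch, chr17:6259591-6561877, was not particular to H3K27me3. It runs over Tmem181a, Dynlt1a, Dynlt1b, Tmem181b-ps and Gm2792, a duplicated group in which Dynlt1 genes encode a light chain of the motor protein dynein. Of the 33 H3K27me3 regions, 21 belonged to Tmem181b-ps, 4 to Dynlt1b, 3 to Dynlt1a and 2 each to Tmem181a and Gm2792, by the nearest start within 50 kb of the summit. The region with the highest fold, chr17:6495138-6495361 (38 WT tags over 3.64, fold 7.20), has an identical copy at chr17:6251750-6251973. Of the 33, 32 have at least 1 copy at 95% identity or more, 14 of them an identical one, and for 31 all copies lie on the same chromosome between 6222305 and 6923322. Reads from these copies cannot be told apart with certainty, so the split over the 5 genes is uncertain.

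Each of the other WT-higher lists had regions in the same stretch, 54 for H3K4me1, 35 for H3K9ac, 33 for H3K27ac, 31 for H3K4me3 and 11 for H3K9me3, while each of the KO-higher lists had 0. Their median folds there were 3.45, 3.83, 3.40, 4.10 and 4.52, beside 3.86 for H3K27me3. Marks of active and of repressed chromatin were thus listed in the same direction over the same duplicated sequence, and 15 of the 33 H3K27me3 regions shared bases with at least 1 of these lists. The number of DNA copies in the 2 genotypes was not tested, and the input libraries were not analysed here. RNA differences in the authors' deposited table were small and did not pass an FDR of 0.05: Tmem181a was at a log2 fold change of -0.49 (FDR 0.116), Dynlt1b at -0.18 and Dynlt1a at -0.13 (both with an FDR of 1).

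**Figure D2:**
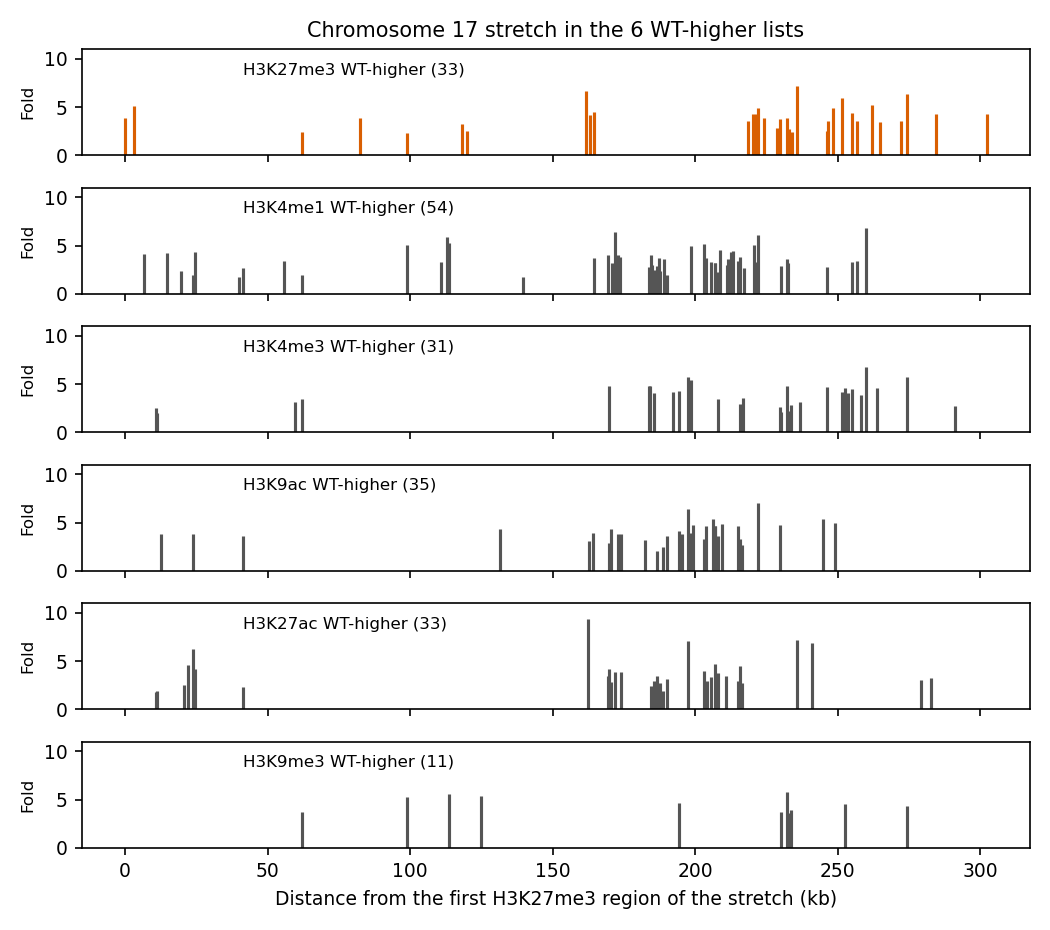
Fold of each region (vertical axis) against its distance from the first H3K27me3 region of the chromosome 17 stretch in kb (horizontal axis) in the 6 WT-higher lists, with the number of regions in brackets. All 6 lists have regions across the stretch, from 11 for H3K9me3 to 54 for H3K4me1; the KO-higher lists have none and are not drawn.

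Over the contig the other marks were listed in both directions. WT-higher lists had 17 regions for H3K4me1, 10 for H3K9me3, 9 for H3K4me3, 3 for H3K27ac and 2 for H3K9ac there, and KO-higher lists 12 for H3K27ac and 1 for H3K9ac. Of the 35 H3K27me3 regions, 6 overlapped a region of KO-higher H3K27ac, while 3 overlapped one of WT-higher H3K27ac. Of the other WT-higher lists, H3K4me1 was shared by 8, H3K4me3 by 4, H3K9me3 by 3 and H3K9ac by 1. The gene models used here do not cover this sequence, so its regions were joined to no gene.

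At Scd2, WT-higher H3K27me3 regions were listed along the whole gene, and KO-higher acetylation regions over its first part. The 15 regions spanned chr19:44320949-44381515, 60567 bp, and 13 of them lay from 44367906 to 44381515, that is from the Scd2 promoter to just past its end (Scd2 is on the plus strand at 44368166 to 44381354). Of the other two, 1 lay 26665 bp upstream of Scd2 and 1 lay 8705 bp downstream of the start used for Scd3, a neighbouring desaturase gene. No region was assigned to Scd1 or Scd4, the further desaturase genes of the cluster.

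The values at Scd2 were even rather than high. The 15 regions had a median of 23.0 WT tags (16 to 29) over a KO background of 2.43 tags (2.04 to 5), and 5 of them stood over the average of the whole genome. Their folds ranged from 3.43 to 6.51 with a median of 4.81, against 4.21 for the 266 autosomal regions outside both stretches. The promoter region, chr19:44367906-44368675, was the longest of all 395, at 770 bp, and had the highest fold and -log10 q of the stretch, 6.51 and 7.47, from 25 WT tags over 2.43 (Poisson interval of the WT count 16.2 to 36.9). The last region, just past the end of the gene, had 21 WT tags over 2.04 and a fold of 6.21. A -log10 q of 5 was reached by 4 of the 15 (26.7%, 10.9 to 52.0).

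Around Scd2, 28 KO-higher H3K27ac, 11 KO-higher H3K9ac and 3 KO-higher H3K4me3 regions lay in the same stretch. It also held 4 WT-higher H3K4me1 regions (fold 2.45 to 3.03) and 1 WT-higher H3K4me3 region (fold 2.60). Of the 15 H3K27me3 regions, 8 shared bases with KO-higher H3K27ac (53.3%, 30.1 to 75.2). KO-higher H3K9ac was shared by 6, KO-higher H3K4me3 by 3 and WT-higher H3K4me1 by 1. Outside the stretches and the contig, 1 of 312 regions shared bases with KO-higher H3K27ac (0.321%, 0.0566 to 1.79). These 2 shares are not like for like, since the 28 KO-higher H3K27ac regions lay close together within 60567 bp. The share that regions placed elsewhere in the stretch would have was not computed. At the promoter, H3K27me3 had a fold of 6.51 toward WT, and the overlapping regions leaned toward KO, by a fold of 7.23 in H3K27ac, 6.12 in H3K9ac and 4.06 in H3K4me3. In the intron at chr19:44373339-44373530, printed above, H3K27me3 had 24 WT tags over 3 and a fold of 5.36, and KO-higher H3K27ac a fold of 6.65.

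Within the stretch, the listed differences of the 2 marks did not stop at the same place. Regions of the other lists outside the stretch were not looked at. The last KO-higher H3K27ac region of the stretch lay at 44374556 to 44374767, 6.58 kb from the start of Scd2. Up to there, 7 H3K27me3 regions of the gene had a median of 20 WT tags and a median fold of 5.36 (4.29 to 6.51). Beyond it, 6 more had a median of 23.5 WT tags and a median fold of 4.53 (3.43 to 6.21), and this part of the stretch held no acetylation region. Upstream of the gene, KO-higher H3K27ac regions were in turn listed away from H3K27me3. The highest H3K27ac fold of the stretch, 9.40 at 44359945 to 44360259, lay there in a region that shared no bases with H3K27me3. The median distance from an H3K27me3 summit to the nearest KO-higher H3K27ac summit of the stretch was 546 bp (17 to 6708). Of the 15 regions, 2 have a near-identical copy elsewhere in the assembly.

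**Figure D3:**
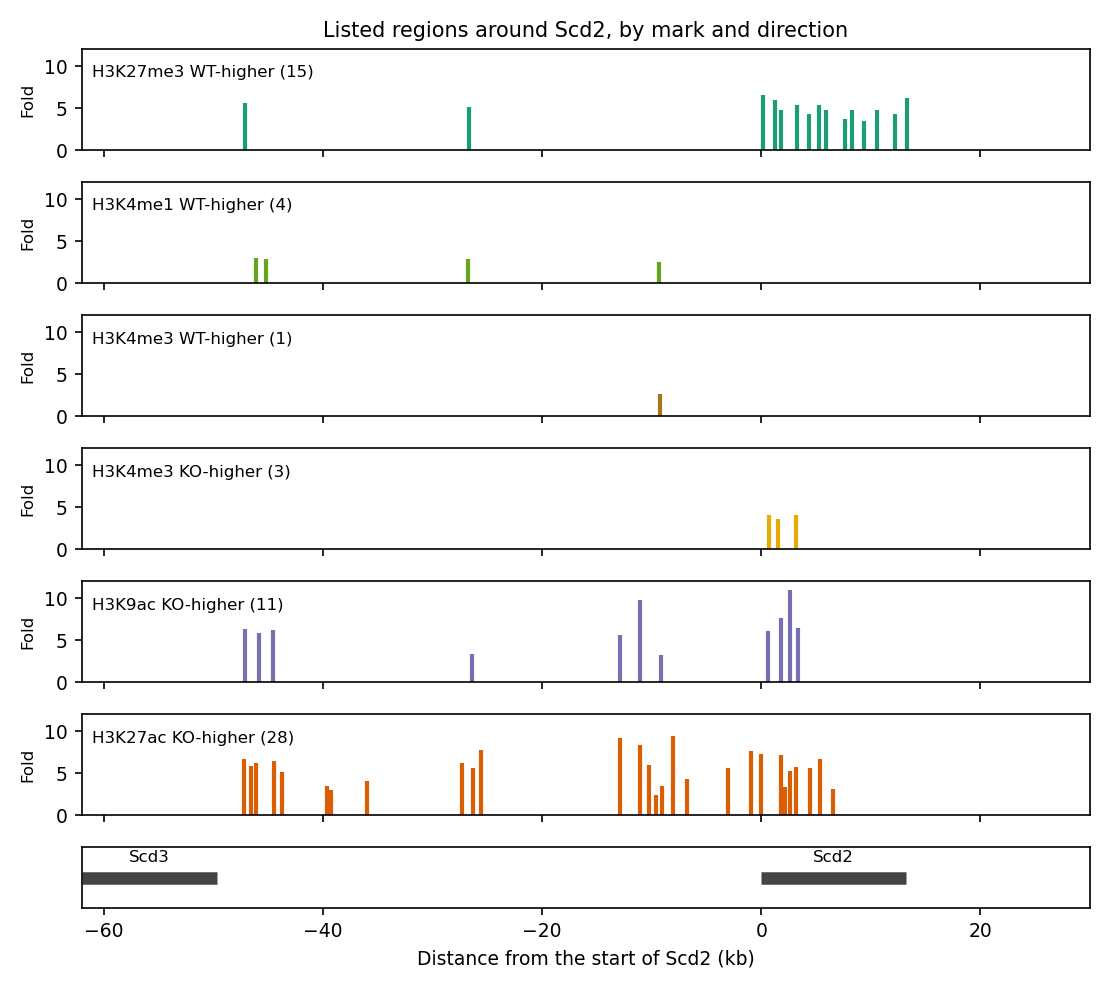
Fold of each listed region (vertical axis) against its distance from the start of Scd2 in kb (horizontal axis), by mark and direction, with gene bodies at the bottom and the number of regions in brackets. Regions of the other lists are drawn only where they overlap the stretch of H3K27me3 regions, so blank space outside it is no absence. The H3K27me3 regions run to 13283 bp, past the end of Scd2, whereas the KO-higher H3K27ac regions within the stretch stop at 6.58 kb.

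RNA of Scd2 was higher in KO in the authors' deposited table, with a log2 fold change of 1.72 (FDR 1.23e-81). That table is attached to the WT-higher H3K4me1 list, so it holds only genes the authors joined to a region of that list and is no sample of all genes. It gave values for 26 of the 180 genes with an H3K27me3 region. Scd2 was the 1 gene of the 26 that was higher at an FDR of 0.05, beside 75 of the 1296 genes in it (5.79%). Glyctk, glycerate kinase, was lower at -0.88 (FDR 6.39e-07) and Col25a1, a transmembrane collagen, was lower at -1.52 (FDR 0.0279); 136 of the 1296 (10.5%) were lower. The other 23 did not pass. In them, Scd3 had a log2 fold change of -3.02 and Hoxb3 one of -0.06, each with an FDR of 1.

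Chromosome X carried 46 regions, 0.276 per Mb, against 0.112 per Mb on the autosomes without the 2 stretches and 0.132 with them. That was 12.8% of the placed regions (9.72 to 16.6), where X makes up 6.54% of the length of the chromosomes analysed. Among the other lists, this share was 14% for WT-higher H3K9me3 (11.4 to 17.2) and 9.12% for KO-higher H3K9me3 (7.88 to 10.5), 6.87% and 3.26% for KO-higher and WT-higher H3K4me3, and 0.638 to 1.72% for H3K4me1, H3K9ac and H3K27ac. H3K27me3 and H3K9me3, the marks of repressed chromatin, thus had the highest shares on X of the 6 marks, and H3K9me3 had them in both directions.

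The X regions were spread out, with a median of 1.01 Mb between neighbours, and 29 of the 46 lay between genes. Their median fold was 4.34 (2.49 to 7.34), from a median of 24 WT tags over 4. The highest, chrX:10227644-10227848, had 25 WT tags over 2.04 and lay beyond 50 kb of any start. Next came a region 9112 bp from the start of Gpr50, an orphan receptor related to the melatonin receptors, with 29 WT tags over 2.73 and a fold of 6.89. Magt1, a magnesium transporter, had an intronic region of 21 WT tags over 2.04 (fold 6.21), and Cetn2, a centrosome protein, one of 38 over 6 (fold 4.77). Mid1, a ubiquitin ligase on microtubules, had 43 WT tags over 12 (fold 2.90), in an intron 1525 bp from a start, and this region shared bases with WT-higher H3K9me3 (fold 2.91).

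**Figure D4:**
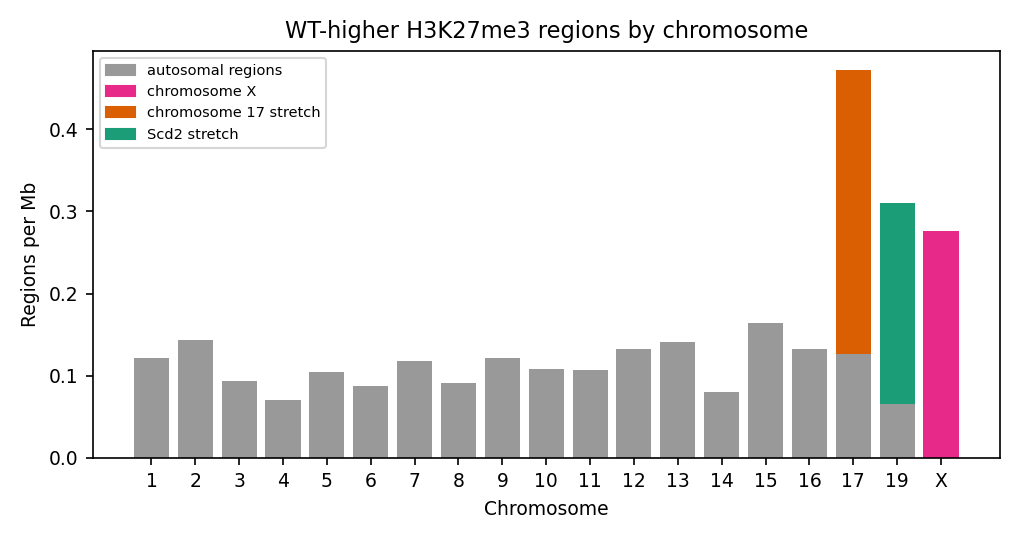
WT-higher H3K27me3 regions per Mb (vertical axis) on each chromosome analysed (horizontal axis), with the chromosome 17 and Scd2 stretches in colour on top of the other regions. Chromosome X stands at 0.276 per Mb without any cluster, while chromosomes 17 and 19 fall to 0.126 and 0.0652 once the stretches are set aside.

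Most regions were far from promoters. Of the 360 placed regions, 14 lay within 1 kb of a transcription start (3.89%, 2.33 to 6.42), 28 in exons (7.78%), 119 in introns (33.1%) and 199 between genes (55.3%, 50.1 to 60.3). The median distance to a start was 35999 bp, and 138 (38.3%) lay beyond 50 kb. The share of the genome that lies within 1 kb of a start was not computed. The share at promoters was 67.2% for WT-higher H3K4me3, 8.01% for KO-higher H3K27ac and 2.70% for WT-higher H3K9me3. Promoters with a WT-higher H3K27me3 region included those of Otop2, a proton channel (43 WT tags over 11, fold 3.14), Flt4, the receptor VEGFR-3 of lymphatic vessels (29 over 6.58, fold 3.39), Nppb, which encodes a natriuretic peptide (27 over 5, fold close to 4), and Igsf1 on X (27 over 3.49, fold 5.35). These 4 were chosen after their values were seen.

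**Figure D5:**
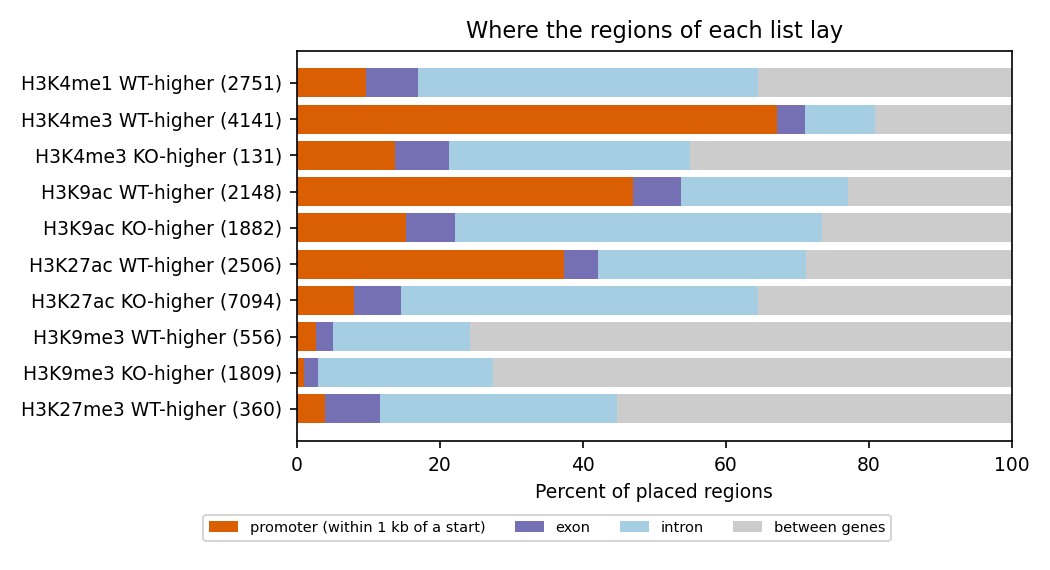
Percent of the placed regions of each list (horizontal axis) at promoters, in exons, in introns and between genes, with the number of placed regions in brackets. WT-higher H3K27me3 had 3.89% at promoters and 55.3% between genes; WT-higher H3K9me3 had 2.70% at promoters, and WT-higher H3K4me3 had 67.2%.

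By the nearest start within 50 kb, 180 of 21700 protein-coding genes (0.829%) had a WT-higher H3K27me3 region, and 172 of them had just 1. Polycomb targets, a list of developmental regulators known to carry the mark in many tissues, had 4 of 135 members (2.96%). Hoxb3, a homeobox gene of body patterning, had a region 1373 bp upstream of a start with 31 WT tags over 5.61 and a fold of 4.15. Evx1, a homeobox gene beside the HoxA cluster, had one 1262 bp upstream with 38 WT tags over 8.64 and a fold of 3.46. Both had a -log10 q below 5, and both regions are printed above. Pax6, which specifies eye and endocrine cells, had an exonic region with 41 WT tags over 10 (fold 3.27), and Nr2f2, a nuclear receptor of mesenchyme and vessels, one 44180 bp downstream of its start with 28 over 6 (fold 3.55). Each was a single short region, and no run of regions covered a Hox cluster. The list holds only called regions, so a weaker difference spread over a whole cluster could be missing from it.

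Outside Polycomb targets, list members with a region were few. Fatty acid desaturation and synthesis had 2 of 21, Scd2 and Scd3, which share the 1 stretch described above. Imprinted genes had 1 of 20, Dlk1, a Notch-like ligand, 13907 bp downstream of its start (23 WT tags over 4, fold 4.12). Enterocyte identity (26 genes), subunits of the Polycomb complexes (32), the NCoR1 complex (6), sterol and bile acid targets of LXR and FXR (19), PPAR targets (25), suckling and weaning (15), stem cells (20), secretory cells (22), immune cells (16), stroma (19) and neurons (19) had 0 members each. Beside a share of 0.829% over all genes, a count of 0 in lists of this size is no result about their genes. The genes with a region often had a listed region of another WT-higher mark as well. Of the 180, 51 (28.3%) also had WT-higher H3K4me3, beside 15.2% of all genes, 30 (16.7%) had WT-higher H3K4me1, beside 7.39%, and 21 (11.7%) had WT-higher H3K9ac, beside 7.55%. WT-higher H3K27ac was at 19 of them (10.6%), beside 7.43%, and WT-higher H3K9me3 at 8 (4.44%), beside 1.06%. Of the KO-higher lists, H3K27ac was at 17 (9.44%), beside 11.4%, H3K9ac at 7 (3.89%), beside 4%, H3K9me3 at 6 (3.33%), beside 2.12%, and H3K4me3 at 1 (0.556%), beside 0.300%. In percentage points the WT-higher H3K4me3 share stood furthest above its background, and it was 26.3% of 175 genes without the contig and the chromosome 17 stretch. The shares of the other WT-higher lists also fell among these 175 genes. They were 14.9% for H3K4me1, 9.71% for H3K9ac and 2.86% for H3K9me3. WT-higher H3K27ac was at 14 of the 175, which is close to its share of all genes. Gene length and the spacing of genes were not adjusted for. No region was assigned to Ncor1 itself, and histone marks do not check the deletion. A list of differences does not measure where a mark is present, so the cell type could not be checked against its markers in it.

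Abca1, the cholesterol exporter and an LXR target, is 1 gene that the rule of the nearest start misses. An H3K27me3 region in an exon of Abca1, chr4:53053658-53053822, had 21 WT tags over 3 and a fold of 4.72, but lay nearest to the start of Nipsnap3b.

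Outside the stretches and the contig, few H3K27me3 regions shared bases with a listed region of another mark. The share that short regions placed elsewhere in the genome would have was not computed. Among the 312, 3 shared bases with WT-higher H3K4me3, 3 with WT-higher H3K9me3, 2 with WT-higher H3K9ac, 1 with KO-higher H3K9me3 and 1 with KO-higher H3K27ac, and 0 with the other lists. The region with the highest -log10 q outside the chromosome 17 stretch and the contig, 15.1, was among them. It lay at chr1:138272122-138272354, 29526 bp upstream of Camsap2, which encodes a protein binding the minus ends of microtubules, and had 54 WT tags over 6.82 (Poisson interval of the WT count 40.6 to 70.5; fold 6.01). It also had WT-higher H3K4me3 with a fold of 3.88. The region shared with KO-higher H3K27ac (fold 3.16) lay in an intron of Dmrt1, 36054 bp upstream of Dmrt3, a transcription factor gene of neural and sexual development, with 20 WT tags over 4 (fold 3.61).

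The remaining genes with high folds were unrelated to each other by list. Il12rb2, a receptor subunit for interleukin-12, Plk1s1, a centrosome protein, and Rgs22, a regulator of G protein signalling, each had a region of 21 WT tags over 2.04 and a fold of 6.21. Folds this equal arise where small whole counts stand over the same background. The highest folds of all, 7.90 at the sites on chromosomes 7 and 10 printed above, came from 27 WT tags each over 2.04 (Poisson interval of a count of 27, 17.8 to 39.3). Dnahc6, a heavy chain of ciliary dynein, had an exonic region of 39 WT tags over 6 (fold 4.89). At Znrf4 a region 1430 bp from the start (24 over 6.37, fold 2.91) shared bases with WT-higher H3K4me3, and at the promoter of Fmn1, a formin, one (23 over 5, fold 3.43) did so with WT-higher H3K9ac. Hspa13, a chaperone, had 1 of the 10 longest regions outside the contig (fold 2.94, 23 over 6), and this region has 3 copies.

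The base composition of the regions was between that of the other lists. The median GC content was 55.8% (55.5 to 56.2), beside 64.6% for WT-higher H3K4me3 and 53.5% for KO-higher H3K9me3, and the median was 1.90 CpG per 100 bp against 7.14 and 1.17. In the Scd2 stretch the median was 3.31 CpG per 100 bp, and 8 of 15 regions had at least 3 per 100 bp, beside 96 of all 360 (26.7%). On X it was 0.981, and 10 of 46 regions had no CpG. The half-site AGGTCA, which many nuclear receptors bind, was searched on both strands within 150 bp to each side of the summit. It was found in 55 of 360 windows (15.3%), beside 10.7 to 21.7% in the other lists, and in 1 of 15 at Scd2. Direct repeats of it spaced by 1 or 4 bases, which contain the half-site, were in 0 of the 360 windows. In the other lists they were in 0 to 0.113% (spaced by 1) and 0 to 0.0282% (spaced by 4). At shares this low, a count of 0 in 360 windows is no result about these regions.

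Outside the chromosome 17 stretch, repeated sequence was a smaller share of the placed regions. Near-identical copies were found for 6 of 46 X regions and 39 of the 266 other autosomal regions, 23 of which have over 20 copies. The most repeated, near Lrp12 on chromosome 15, has 4100 copies, and its fold was 2.79. Reads at such places depend on how the aligner treated multiple matches, and neither the labels nor the headers say how.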

How the data were processed

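Jejunal epithelial cells were profiled by ChIP-seq with 12 ChIP libraries, 1 per mark and genotype, and 4 input libraries, which were not analysed here. Per the labels' protocols the reads were mapped to mm9. Bowtie2 2.2.9, MACS2 2.1.1, HOMER 3.12 and CASAVA 1.8.2 appear in the submitters' processing notes, but the lists carry the version MACS 2.0.10.20130419, per the file headers. For each list MACS compared 1 genotype's library with that of the other, keeping 1 tag per position and regions past a q of 0.05, per the file headers. Per the file headers, a deposited region carries its pileup, a signal brought to the depth of the smaller library, its fold, a ratio to the background, and its -log10 p-value and -log10 q-value. The authors' deposited RNA table, columns added to the repeated WT-higher H3K4me1 list and so limited to its genes, gives a log2 fold change and an FDR, an adjusted p-value; following HOMER's convention for column names, positive values were taken as higher in KO, and 12 per-library RNA columns were not used. The RNA libraries are not samples of this series.

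WT tags were recovered as the pileup divided by the depth ratio of 0.852, whole within 0.001 at 395 of 395 regions. The KO background was taken from the fold. P-values recomputed from both differed from the deposited -log10 values by at most 3.57e-05. Regions were joined to GENCODE genes of the mm9 assembly by the nearest protein-coding start within 50 kb of the summit. The gene background, the regions per Mb and the shares on X leave out chromosomes 18 and Y. None of the 395 regions lay there, since 360 lay on the chromosomes analysed and 35 on the contig. In the longest list, KO-higher H3K27ac, 7094 of 7111 regions lay on the chromosomes analysed and 12 on the contig. Copies were found with BLAST 2.17.0 at 95% identity over 80% of a region. Regions on the contig were not searched for copies. Clusters allowed gaps of 100 kb. Intervals are 95% Wilson or exact Poisson, and medians carry order-statistic intervals; all cover counting error only. The scripts were tested on simulated data. Soft-masked shares were not computed, since the genome used here holds no masking. The genes named were Scd2, Ncor1, those of the 20 highest folds, of the 20 highest -log10 q and of the 10 longest regions, genes with 3 or more regions, members of the lists, genes of clusters and of shared regions, and genes past the RNA threshold; others are given as chosen after their values were seen. The regions and gene lists were chosen with earlier results of these data known.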

Additional observations from a re-analysis of the deposited data

How the results depend on the processing

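No paired analysis was possible because each mark and genotype had 1 library, and no result comes from a test. None of the 145 alternative values turned a direction, since the list holds 1 direction only. Of these values, 102 stayed within 1.5 times or within the interval, and 43 moved. Many of the 102 were gene lists with 0 members at both settings, counted as unchanged, so the 102 are no measure of stability. The contig, chromosome 17 and copy alternatives, and the threshold on the X share, were chosen after seeing the data. The causes were not tested. At a -log10 q of at least 5, 83 regions remained, 20 of them in clusters, and the X share was 17.4%. That threshold left 9 and 7 regions shared with WT-higher H3K4me1 and H3K4me3, 3 and 2 with WT-higher and KO-higher H3K9ac, 1 and 5 with WT-higher and KO-higher H3K27ac, and 2 and 0 with WT-higher and KO-higher H3K9me3. Without the contig and the chromosome 17 stretch there was 1 cluster of 15 regions, and 1 region was shared with H3K4me1, 3 with WT-higher H3K4me3, 2 with WT-higher H3K9ac, 0 and 9 with WT-higher and KO-higher H3K27ac, and 3 with WT-higher H3K9me3. Without regions that have a near-identical copy there was 1 cluster of 13 regions. In this setting 10, 7, 3 and 5 regions were shared with WT-higher H3K4me1, H3K4me3, H3K9ac and H3K9me3. The 35 contig regions were not searched for copies and were all kept, and 8, 4, 1 and 3 of these shared regions lay on the contig. Within 5 kb, H3K27me3 regions had a neighbour of WT-higher H3K4me1 in 59 cases, H3K4me3 in 49, H3K9me3 in 38, H3K9ac in 27 and H3K27ac in 20. Without the contig and the chromosome 17 stretch, these counts were 7, 11, 4, 5 and 1. A neighbour of KO-higher H3K27ac was found in 37 cases, H3K9ac in 16, H3K4me3 in 9 and H3K9me3 in 6. Without the contig and that stretch, the KO-higher counts were 17, 12, 9 and 6. An overlap of 50% of the shorter region left 1 shared with KO-higher H3K4me3. Within 10 kb of a start, 65 genes had a region and Dlk1 had none, leaving 0 imprinted genes. With the summit inside the gene body, 2 Polycomb targets, 1 desaturation gene and 0 imprinted genes remained, and 1 LXR or FXR target, Abca1, was added. Promoters reaching 2.5 kb held 8.61% of regions. The median GC within 150 bp to each side of the summit was 53.2%. Depth limits the list: 74 regions rest on fewer than 20 WT tags.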

Other observations

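A few developmental and metabolic genes outside the lists also had a WT-higher H3K27me3 region; they were chosen after their values were seen. Gad2, an enzyme of GABA synthesis, had a region 4046 bp upstream of its start, in an exon of Myo3a, with 33 WT tags over a KO background of 10 (fold 2.65). Fezf1, a zinc finger gene of the forebrain, was 1 of the few genes with 2 regions; the higher had 22 WT tags over 3 (fold 4.94) and lay 47757 bp downstream of its start. Elovl3, an elongase of fatty acids, had 23 over 6 (fold 2.94), 5443 bp upstream of its start. Ces2a, an intestinal carboxylesterase, had 2 regions, the higher with 23 over 4 (fold 4.12), and this region has 5 near-identical copies.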
